A study of Dichomitus squalens with 16 samples.

Results

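Clavaminate synthase-like proteins form a family of putative oxygenases in Dichomitus squalens (strain LYAD-421 SS1), a basidiomycete of the white-rot type that decays wood. Members were taken as every gene whose best protein match in the deposited annotation carries a description that begins with clavaminate synthase-like. That gave 39 of 11410 genes. The values come from RNA sequencing of mycelium grown on 4 plant materials and sampled on 2 days. The 8 groups, with 2 libraries each, were spruce sawdust on day 16, spruce sawdust on day 9, aspen sawdust on day 16, aspen sawdust on day 9, wheat bran powder on day 16, wheat bran powder on day 9, cotton seed hull powder on day 16 and cotton seed hull powder on day 9. All groups shared the strain, a preculture of 4 days at 28 °C with 6.8 mM glycerol, and 1 g of the plant material in 100 ml of a low-nitrogen medium that contains asparagine and succinate. No group without plant material was analysed here, so each level is set against another substrate or day.

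Clavaminate synthase of Streptomyces is an oxygenase that works in the route to the beta-lactamase inhibitor clavulanic acid, and its fold is shared by a large class of Fe(II)- and 2-oxoglutarate-dependent oxygenases. In these enzymes histidines and an acidic residue hold the iron, and the oxidation of a substrate is coupled to the conversion of 2-oxoglutarate into succinate and carbon dioxide. The class is known for hydroxylations and demethylations of very different molecules, from plant hormones and carnitine precursors to histones, and the description alone does not give the substrate of any of the 39 genes.

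The other annotation in the deposited tables was of this enzyme class for part of the members. A KEGG match was listed for 33 members, and for 27 of them the first match was an oxygenase that uses 2-oxoglutarate. A Gene Ontology function was listed for 22 members, all 22 named an oxidoreductase, and 8 named a 2-oxoglutarate enzyme, of 16 such genes among the 11410 with reads. DICSQDRAFT_96760 was listed as an oxidoreductase of another class, acting on single donors, and had no KEGG match. The first KEGG match was gibberellin 2-oxidase, a plant enzyme that inactivates the hormone gibberellin, for 24 members, and the orthology group K06892, which the tables leave unnamed, for 5 members. Single members matched gamma-butyrobetaine dioxygenase (DICSQDRAFT_156869), an enzyme of carnitine synthesis, lysine-specific demethylase 3 (DICSQDRAFT_103145), a histone demethylase, an F-box and leucine-rich repeat protein 10/11 (DICSQDRAFT_84281), and tRNA wybutosine-synthesizing protein 4 (DICSQDRAFT_182270), an enzyme of tRNA base modification. The remaining 6 members had no KEGG match. The gene models were 660 to 3313 bases long, with a median of 1098 bases.

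Libraries held about 7984000 to 8848000 uniquely mapped reads. The 2 libraries of a group correlated across genes with r = 0.985 to 0.994 on log2 RPKM, lowest for spruce on day 9, and the read counts of no pair agreed within counting error. Disagreement beyond counting error, as a chi-square per degree of freedom, was largest on wood on day 9. It was 27.0 for spruce and 29.3 for aspen on that day, against 1.66 to 11.6 in the other groups. The test shares its estimate of the spread between all groups, so SEs of contrasts with wood on day 9 may be too small. Levels are given as the authors' RPKM (unique reads scaled to gene length and library total), a scale on which genes can be compared with each other. Differences between groups are log2 fold changes from edgeR's quasi-likelihood test on the read counts, with normalization by the trimmed mean of M-values (TMM) and p-values adjusted by Benjamini-Hochberg over the 10584 genes tested; a gene is called at an adjusted p under 0.05. The labels do not say whether the 2 libraries of a group came from separate cultures, so the p-values cover the spread between these libraries, which may be technical. In mycelium on a substrate, fewer cells of a type and less RNA per cell cannot be told apart.

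The family was spread over a wide range of levels. In mean RPKM of a group, 5 members reached at least 100 in at least 1 group, 27 reached at least 10, and 12 stayed under 10 in every group. The median member had a mean of 9.39 RPKM over the 16 libraries, against 15.9 RPKM for the median of all genes. Of the 39 members, 20 had their highest group mean on wood on day 16, 13 on wood on day 9 and 6 on a non-woody substrate, and 19 had their lowest mean on cotton seed hulls on day 16. With library totals the median of all genes was itself higher on wood, by 0.51 log2 units on day 16 and 0.31 on day 9. On day 16 it was also higher on wheat bran than on cotton seed hulls, by 0.48. The same counts were not made over all genes, so no trait of the family is read from them. All members had reads, but DICSQDRAFT_67359 had a mean below 1 RPKM in every group and was not tested, which leaves 38 tested members.

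**Figure D1:**
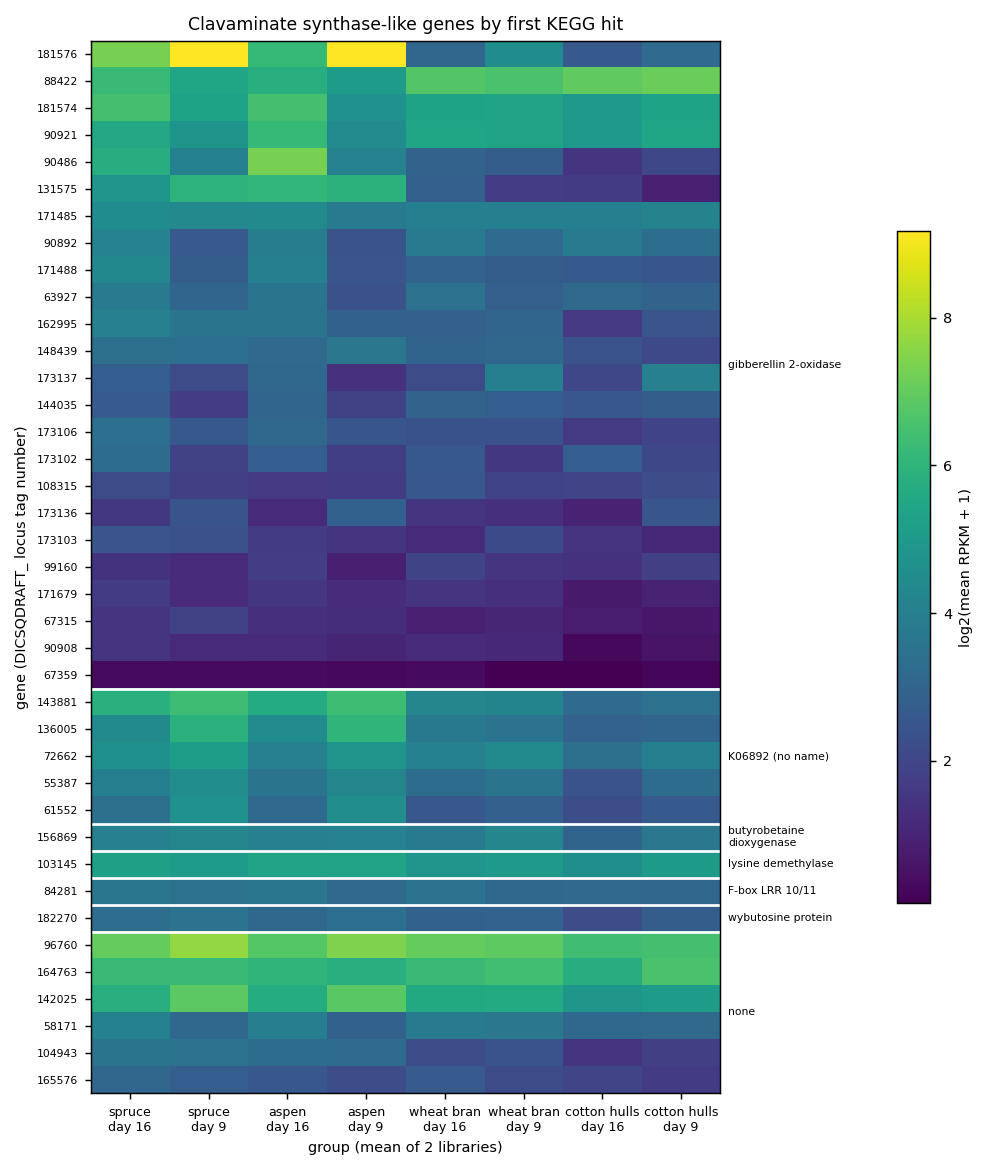
Level of the 39 clavaminate synthase-like genes (rows, grouped by first KEGG match and ordered by mean level within a group of rows) in the 8 groups (columns), as log2(mean RPKM + 1) over 2 libraries. The brightest cells are those of DICSQDRAFT_181576 on spruce and aspen on day 9, and most of the 24 genes with a gibberellin 2-oxidase match are dark throughout.

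The summed level of the family was higher on wood than on the non-woody substrates on both days, and 1 gene made up most of the extra sum on day 9. On day 16 the sum was 1064 and 1090.4 RPKM on spruce and 1082 and 1048 RPKM on aspen, against 699 and 685 RPKM on wheat bran and 524 and 505 RPKM on cotton seed hulls. On day 9 it was 1582 and 1530.0 RPKM on spruce and 1518 and 1366 RPKM on aspen, against 686 and 704 RPKM on wheat bran and 649 and 648 RPKM on cotton seed hulls. The 4 wood libraries of each day lay above the 4 non-woody libraries without overlap. DICSQDRAFT_181576 alone held 33.5 to 44.4% of the sum in the wood libraries of day 9, 14.6% in both spruce libraries of day 16, 6.53 and 6.76% in the aspen libraries of day 16, and 0.951 to 3.66% in the non-woody libraries. Without it the sum was 759 to 1052 RPKM in the 8 wood libraries and 499 to 692 RPKM in the 8 non-woody libraries. On this scale of library totals the median of all genes was itself higher on wood, by 0.31 log2 units on day 9 and 0.51 on day 16, so the sums are read against that shift.

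**Figure D2:**
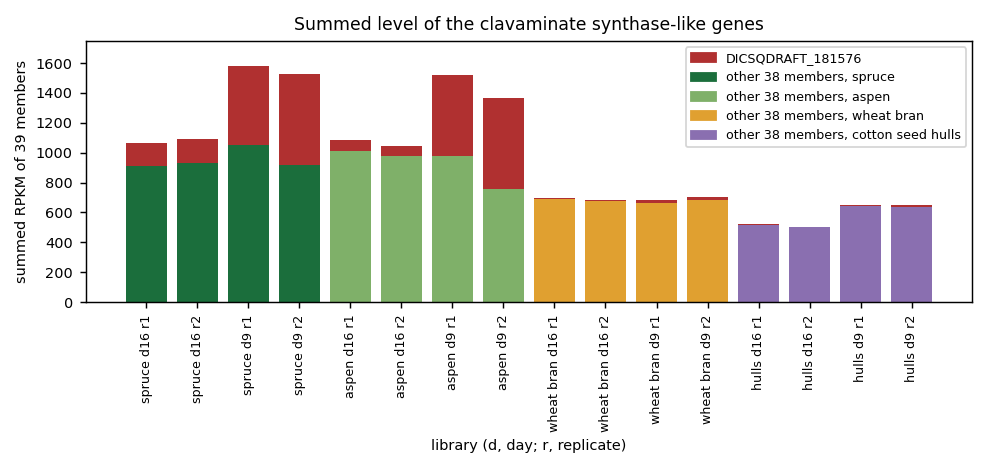
Summed RPKM of the 39 members in each of the 16 libraries, with DICSQDRAFT_181576 in red on top of the other 38 members (colour by substrate, d for day, r for replicate). The red part is 33.5 to 44.4% of the bar in the 4 wood libraries of day 9 and at most 3.66% in the 8 non-woody libraries.

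Between wood (spruce and aspen averaged) and the non-woody substrates (wheat bran and cotton seed hulls averaged), most members differed on both days, in both directions. On day 16, 22 of 38 members (57.9%) were called, 15 higher and 7 lower on wood, where 59.7% of all tested genes were called, 29.7% higher and 30% lower. On day 9, 28 members (73.7%) were called, 16 higher and 12 lower on wood, against a background of 71.6%, with 37.4% higher and 34.1% lower. The shares of members called were close to those of all genes. The median log2 fold change over the tested members was 0.23 on day 16 and 0.21 on day 9, against 0.03 over all genes on both days. With library size alone in place of TMM the splits were 31 higher and 1 lower on day 16, and 20 higher and 9 lower on day 9.

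A fold change of at least 2 was less common in the background than a call. On day 9, 9 members were called higher and 6 lower on wood by at least that much, where 15% of all tested genes were higher and 12.9% lower. On day 16 the counts were 9 higher and 1 lower, where the background was 9.48% and 6.25%. In RPKM, all 4 wood libraries lay above all 4 non-woody libraries for 15 members on day 9 (background 36.4%) and 21 on day 16 (background 43.1%), and all lay below for 6 members on day 9 (background 15.8%) and 1 on day 16 (background 6.59%).

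**Figure D3:**
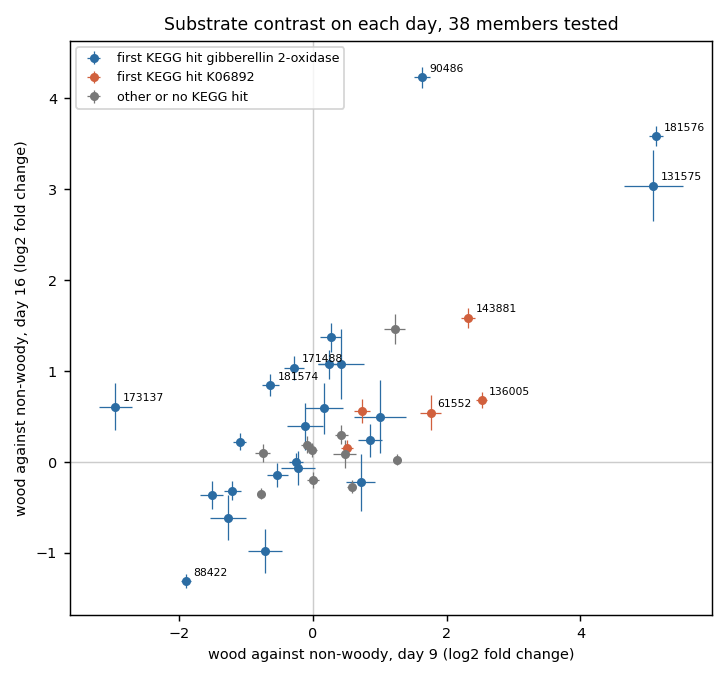
Log2 fold change of wood against non-woody substrates on day 16 (vertical axis) and on day 9 (horizontal axis) for the 38 tested members, with bars of 1 SE and colours for the first KEGG match; numbers are locus tags of the 10 members described by library. DICSQDRAFT_181576 and DICSQDRAFT_131575 lie above 5 on day 9, DICSQDRAFT_90486 lies above 4 on day 16, and DICSQDRAFT_173137 lies near -3 on day 9.

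DICSQDRAFT_181576, the most abundant member, had the largest log2 fold change between wood and non-woody substrates on day 9. On day 16 it had 155 and 159.6 RPKM on spruce and 73.1 and 68.4 RPKM on aspen, against 7.28 and 7.47 RPKM on wheat bran and 4.98 and 5.71 RPKM on cotton seed hulls. On day 9 it had 531 and 614 RPKM on spruce and 542 and 607 RPKM on aspen, against 25.1 and 18.2 RPKM on wheat bran and 7.98 and 8.92 RPKM on cotton seed hulls. Every wood library lay above every non-woody library, and the 2 wood species overlapped on day 9 but not on day 16. The wood contrast was a log2 fold change of 3.59 (SE 0.11, edgeR adjusted p = 4.7e-14) on day 16 and 5.13 (SE 0.11, edgeR adjusted p = 2.2e-16) on day 9.

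The level of DICSQDRAFT_181576 was lower on day 16 than on day 9 on 3 substrates. The day contrast was -1.88 (SE 0.12, edgeR adjusted p = 3.8e-09) on spruce, -3.17 (SE 0.13, edgeR adjusted p = 7.4e-12) on aspen and -1.54 (SE 0.15, edgeR adjusted p = 2.6e-06) on wheat bran, all as log2 fold changes. On cotton seed hulls it was -0.41 (SE 0.17, edgeR adjusted p = 0.082), which did not pass. The fall was steeper on aspen than on spruce, with a difference of the log2 day effects of 1.29 (SE 0.17, edgeR adjusted p = 8.3e-05), and on day 16 the gene was higher on spruce than on aspen by 1.07 (SE 0.12, edgeR adjusted p = 1.5e-05) on the log2 scale. On wheat bran it was higher than on cotton seed hulls on day 9, by 1.13 (SE 0.15, edgeR adjusted p = 2.4e-05) on the log2 scale. In order of mean level the groups ran from aspen day 9 (574 RPKM) and spruce day 9 (572), which did not differ beyond their spread, through spruce day 16 (157), aspen day 16 (70.8) and wheat bran day 9 (21.7) to cotton seed hulls day 9 (8.45), wheat bran day 16 (7.38) and cotton seed hulls day 16 (5.34); the libraries of the last 3 groups lay between 4.98 and 8.92 RPKM.

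Over the 8 group means, on the log2 scale, the genes most like DICSQDRAFT_181576 were DICSQDRAFT_71665 (r = 0.995) and DICSQDRAFT_156213 (r = 0.994), both hypothetical proteins, and DICSQDRAFT_147974 (r = 0.993), a 14 alpha-demethylase, an enzyme of sterol synthesis; 10 genes reached an r of at least 0.99. The 14 alpha-demethylase gene had 64.0 and 12.2 RPKM on spruce and aspen on day 16 and 156 and 155 RPKM on day 9, against 0.608 to 3.23 RPKM in the 4 non-woody group means. These 8 points share their libraries with the member itself, so the r values describe likeness of pattern only.

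DICSQDRAFT_131575 had the next largest contrast on day 9, with uneven replicates on wood. On day 16 it had 30.3 and 23.4 RPKM on spruce and 55.5 and 78.0 RPKM on aspen, against 6.08 and 6.47 RPKM on wheat bran and 2.35 and 1.98 RPKM on cotton seed hulls. On day 9 the wood libraries held 86.3 and 34.5 RPKM on spruce and 79.0 and 40.1 RPKM on aspen, against 2.34 and 2.25 RPKM on wheat bran and 0.875 and 0.919 RPKM on cotton seed hulls. The lowest wood library lay above the highest non-woody library on each day, although the replicates of day 9 wood differed by more than the means of the 2 wood species. The wood contrast was 3.04 (SE 0.39, edgeR adjusted p = 1.3e-04) on day 16 and 5.09 (SE 0.44, edgeR adjusted p = 5.1e-06) on day 9 (log2 fold changes).

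The remaining calls for DICSQDRAFT_131575 rested on few libraries and depended on the processing. It was lower on spruce than on aspen on day 16, with a log2 fold change of -1.40 (SE 0.43, edgeR adjusted p = 0.045), and lower on day 16 than on day 9 on spruce, with -1.18 (SE 0.43, edgeR adjusted p = 0.046). The first call was lost without any 1 of the 4 spruce and aspen libraries of day 16, with log2 fold changes of -1.63 to -1.12. With library size alone it was also lost (-1.31, edgeR adjusted p = 0.062). The second was lost without spruce day 9 replicate 1, where the log2 fold change was -0.38, and without either spruce library of day 16, where it was -1.39 and -0.99. The second call was also lost with library size alone (-1.17, edgeR adjusted p = 0.053) and with only the groups compared (-1.15, edgeR adjusted p = 0.22). The log2 day effect of wood minus that of non-woody substrates was -2.05 (SE 0.69, edgeR adjusted p = 0.033), and this call was lost with library size alone (edgeR adjusted p = 0.051) and without any 1 of 11 of the 16 libraries (edgeR adjusted p of 0.051 to 0.087), with values of -2.08 to -1.80. Off wood its mean was higher on day 16 than on day 9, neither called, at 6.28 against 2.30 RPKM on wheat bran and 2.16 against 0.897 RPKM on cotton seed hulls. On aspen the mean was 66.8 RPKM on day 16 and 59.6 RPKM on day 9. The difference of day effects thus holds a rise off wood, not only the fall on spruce. Its most similar genes over the 8 group means were the hypothetical proteins DICSQDRAFT_135787 (r = 0.988), DICSQDRAFT_130703 (r = 0.986) and DICSQDRAFT_69829 (r = 0.986).

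DICSQDRAFT_90486 was highest on wood on day 16, with its peak on aspen. The day 16 libraries held 54.1 and 51.3 RPKM on spruce and 166 and 152 RPKM on aspen, against 6.63 and 6.92 RPKM on wheat bran and 2.00 and 1.59 RPKM on cotton seed hulls. The day 9 libraries held 17.5 and 13.8 RPKM on spruce and 18.9 and 13.7 RPKM on aspen, against 6.60 and 5.03 RPKM on wheat bran and 2.92 and 3.30 RPKM on cotton seed hulls. On both days all wood libraries lay above all non-woody ones, and on day 16 both aspen libraries lay above both spruce libraries.

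The wood contrast of DICSQDRAFT_90486 was a log2 fold change of 4.23 (SE 0.12, edgeR adjusted p = 2.2e-14) on day 16 and 1.63 (SE 0.12, edgeR adjusted p = 2.0e-09) on day 9. It was higher on day 16 than on day 9 by 1.74 (SE 0.14, edgeR adjusted p = 2.3e-08) on spruce and 3.15 (SE 0.14, edgeR adjusted p = 1.0e-11) on aspen, and the log2 day effect of spruce minus that of aspen was -1.41 (SE 0.19, edgeR adjusted p = 8.1e-05). Spruce was below aspen on day 16, with a log2 fold change of -1.68 (SE 0.12, edgeR adjusted p = 1.3e-07). On the non-woody substrates the day contrasts, 0.23 for wheat bran and -0.54 for cotton seed hulls, did not pass, and wheat bran was above cotton seed hulls by 1.45 (SE 0.22, edgeR adjusted p = 8.8e-05) on day 16. DICSQDRAFT_181576 and DICSQDRAFT_90486 thus had opposite signs in the day contrast on both woods and in the spruce against aspen contrast of day 16, each called.

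**Figure D4:**
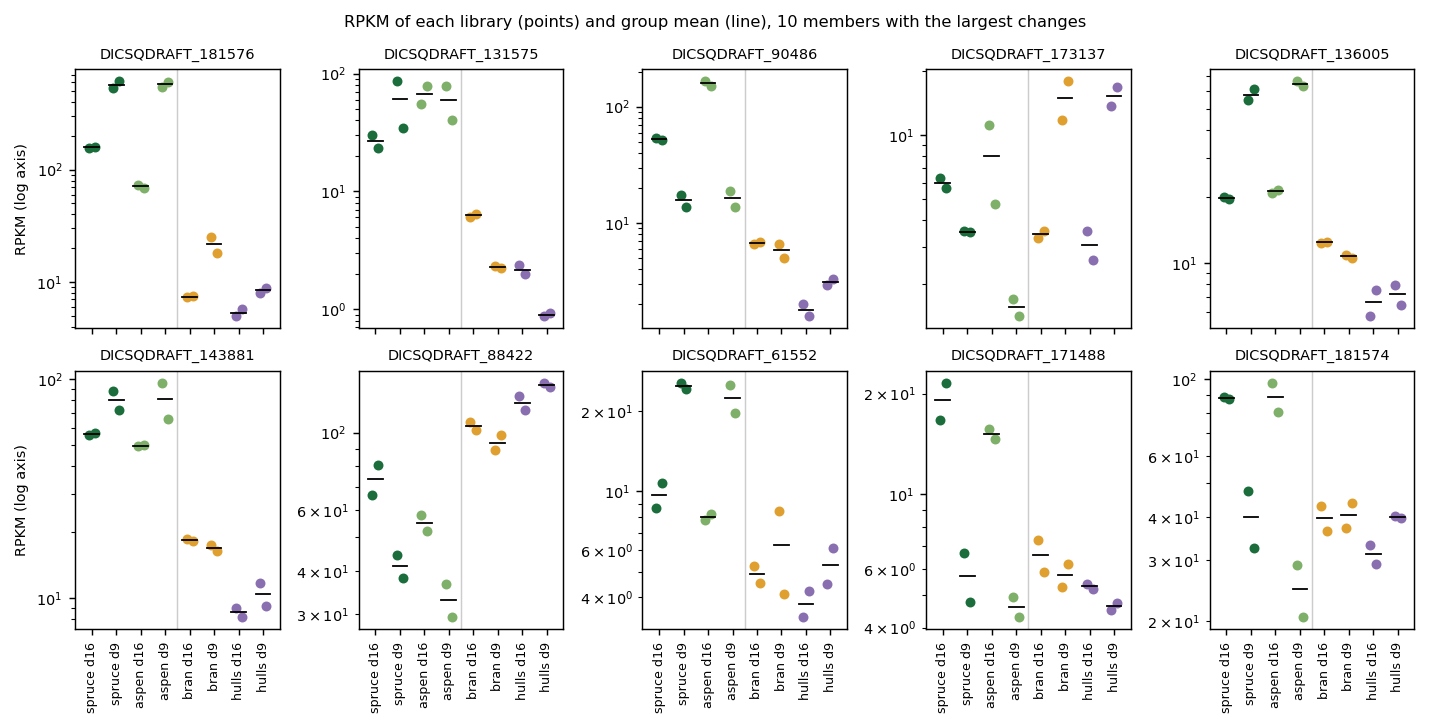
RPKM of every library (points, coloured by substrate, d for day) and the mean of each group (black line) for the 10 members with the largest called changes, on log axes that differ between panels; the grey line parts the wood groups on the left from the non-woody groups. DICSQDRAFT_181576 runs from 4.98 RPKM in a cotton seed hull library of day 16 to 614 RPKM in a spruce library of day 9.

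All 5 members with the K06892 match were higher on wood on day 9, where 37.4% of all tested genes were, with log2 fold changes of 0.51 to 2.52 and a median of 1.76. All 5 were lower on day 16 than on day 9 on spruce (-1.56 to -0.51), as were 27% of all genes, and on aspen (-1.76 to -0.82), as were 32.1%. On day 16, 4 of the 5 were called higher on wood (background 29.7%), and DICSQDRAFT_72662 was not (0.15); the median of the 5 was 0.56. On wheat bran their log2 fold changes between days lay between -0.38 and 0.22 and did not pass, and on cotton seed hulls DICSQDRAFT_55387 was lower on day 16 (-0.76, SE 0.20, edgeR adjusted p = 0.0092). The day effects of wood and non-woody substrates differed for 4 of the 5, each more negative on wood (background 27.7%), and for DICSQDRAFT_55387 the difference was -0.17 and did not pass.

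The K06892 member with the largest contrast was DICSQDRAFT_136005. On day 16 it had 20.0 and 19.6 RPKM on spruce and 20.8 and 21.4 RPKM on aspen, against 12.3 and 12.5 RPKM on wheat bran and 5.76 and 7.59 RPKM on cotton seed hulls. On day 9 it had 54.5 and 61.1 RPKM on spruce and 66.7 and 63.2 RPKM on aspen, against 10.9 and 10.6 RPKM on wheat bran and 7.95 and 6.47 RPKM on cotton seed hulls. The wood libraries of day 9 were the 4 highest of the 16, and the wood contrast was 2.52 (SE 0.09, edgeR adjusted p = 8.6e-14) on day 9 and 0.68 (SE 0.09, edgeR adjusted p = 6.4e-06) on day 16 as log2 fold changes.

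DICSQDRAFT_143881, also with this match, was the most abundant of the 5. The day 16 libraries held 55.6 and 56.9 RPKM on spruce and 49.3 and 49.9 RPKM on aspen, against 18.7 and 18.2 RPKM on wheat bran and 9.03 and 8.14 RPKM on cotton seed hulls. The day 9 libraries held 88.4 and 72.6 RPKM on spruce and 96.5 and 65.6 RPKM on aspen, against 17.5 and 16.4 RPKM on wheat bran and 11.7 and 9.20 RPKM on cotton seed hulls. Wood and non-woody libraries did not overlap on either day, with a log2 fold change of 1.59 (SE 0.11, edgeR adjusted p = 1.9e-09) on day 16 and 2.32 (SE 0.11, edgeR adjusted p = 3.9e-12) on day 9.

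DICSQDRAFT_61552 was also highest on wood on day 9, at lower levels. Its day 16 libraries had 8.66 and 10.7 RPKM on spruce and 7.77 and 8.20 RPKM on aspen, against 5.26 and 4.53 RPKM on wheat bran and 3.36 and 4.21 RPKM on cotton seed hulls. Its day 9 libraries had 25.6 and 24.1 RPKM on spruce and 25.1 and 19.7 RPKM on aspen, against 8.42 and 4.11 RPKM on wheat bran and 4.50 and 6.11 RPKM on cotton seed hulls. Its contrast on day 9 was 1.76 (SE 0.16, edgeR adjusted p = 4.4e-08), and that on day 16, 0.54 (SE 0.19, edgeR adjusted p = 0.022), was lost without replicate 2 of day 16 on spruce, aspen or wheat bran and without replicate 1 of day 16 on cotton seed hulls (log2 fold changes).

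Within the 23 tested members with a gibberellin 2-oxidase match the wood contrast went both ways. On day 16, 9 were higher and 5 lower on wood (background 29.7% and 30%), and on day 9, 6 were higher and 10 lower (background 37.4% and 34.1%), with median log2 fold changes of 0.39 on day 16 and -0.22 on day 9. With library size alone these splits were 17 and 1 on day 16, and 8 and 7 on day 9. Between days, 11 were higher and 3 lower on day 16 on spruce (background 23.6% and 27%), and 14 were higher and 3 lower on aspen (background 31.5% and 32.1%), with median log2 fold changes of 0.72 on spruce and 0.60 on aspen, against -0.01 and 0.03 over all genes. On wheat bran 3 were higher and 3 lower on day 16 (background 9.13% and 8.16%), and on cotton seed hulls 2 were higher and 3 lower (background 15.7% and 12.7%).

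DICSQDRAFT_88422 was the most abundant member on cotton seed hulls on both days and had the lowest wood contrast of the tested members on day 16. Its day 16 libraries had 66.4 and 80.9 RPKM on spruce and 58.0 and 52.2 RPKM on aspen, against 107 and 102 RPKM on wheat bran and 128 and 116 RPKM on cotton seed hulls. Its day 9 libraries had 44.4 and 38.3 RPKM on spruce and 36.6 and 29.4 RPKM on aspen, against 89.0 and 98.2 RPKM on wheat bran and 139 and 136 RPKM on cotton seed hulls. All wood libraries lay below all non-woody libraries on both days, and the hull libraries lay above the bran libraries. The wood contrast was -1.31 (SE 0.08, edgeR adjusted p = 2.4e-10) on day 16 and -1.90 (SE 0.08, edgeR adjusted p = 1.2e-12) on day 9, and the contrast of wheat bran against cotton seed hulls was -0.69 (SE 0.11, edgeR adjusted p = 9.9e-05) on day 16 and -0.79 (SE 0.11, edgeR adjusted p = 3.4e-05) on day 9 (log2 fold changes). The bran and hull call of day 16 was lost with library size alone, where it was -0.22.

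DICSQDRAFT_173137 moved in opposite directions between days on aspen and on the non-woody substrates. On day 16 it had 6.31 and 5.67 RPKM on spruce, 11.2 and 4.76 RPKM on aspen, 3.30 and 3.55 RPKM on wheat bran and 3.54 and 2.60 RPKM on cotton seed hulls. On day 9 it had 3.53 and 3.51 RPKM on spruce, 1.70 and 1.42 RPKM on aspen, 11.8 and 18.0 RPKM on wheat bran and 13.8 and 16.8 RPKM on cotton seed hulls. The 4 non-woody libraries of day 9 were the highest of the 16, and the 2 aspen libraries of day 9 were the lowest.

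Its log2 fold change of day 16 against day 9 was 2.20 (SE 0.41, edgeR adjusted p = 2.7e-04) on aspen, against -2.11 (SE 0.32, edgeR adjusted p = 3.9e-04) on wheat bran and -2.06 (SE 0.33, edgeR adjusted p = 3.1e-04) on cotton seed hulls. On spruce the change was 0.75 (SE 0.36, edgeR adjusted p = 0.10), which did not pass. Wood was below the non-woody substrates on day 9, with -2.95 (SE 0.25, edgeR adjusted p = 4.3e-08), while the contrast of day 16 was 0.61 (SE 0.26, edgeR adjusted p = 0.054) and did not pass. The day effects differed by 3.56 (SE 0.36, edgeR adjusted p = 1.1e-06) on the log2 scale, wood minus non-woody.

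More members were called between days on wood than on the non-woody substrates, as were more of all genes. On spruce 22 members were called, 12 higher and 10 lower on day 16, where 50.6% of all tested genes were called, 23.6% higher and 27% lower. On aspen 27 were called, 16 higher and 11 lower, against a background of 63.6%, with 31.5% higher and 32.1% lower. On wheat bran 9 were called, 5 higher and 4 lower, against 17.3%, with 9.13% higher and 8.16% lower. On cotton seed hulls 9 were called, 3 higher and 6 lower, against 28.4%, with 15.7% higher and 12.7% lower. With library size alone the split on cotton seed hulls was 2 higher and 12 lower. Leaving out any 1 of the 4 wheat bran libraries gave 3 to 5 calls there, and leaving out cotton seed hulls day 9 replicate 2 gave 5. The difference of log2 day effects, wood minus non-woody, was called for 20 members (background 52.8%), positive for 12 (background 25.1%) and negative for 8 (background 27.7%), and for 16 and 6 with library size alone.

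The calls between days outside wood included some low genes. DICSQDRAFT_173102 was higher on day 16 on wheat bran (1.41, SE 0.33, edgeR adjusted p = 0.0068) and on cotton seed hulls (1.13, SE 0.30, edgeR adjusted p = 0.0086), with 5.26 and 4.81 RPKM on day 16 against 1.43 and 2.36 RPKM on day 9 on wheat bran. The calls of DICSQDRAFT_156869, DICSQDRAFT_84281, DICSQDRAFT_90892 and DICSQDRAFT_173137 also had the same sign with wheat bran and with cotton seed hulls. DICSQDRAFT_63927 (0.80) and DICSQDRAFT_165576 (0.69) were higher and DICSQDRAFT_173103 (-1.32) was lower on day 16 on wheat bran, and DICSQDRAFT_162995 (-0.91) and DICSQDRAFT_164763 (-0.57) were lower on day 16 on cotton seed hulls, in log2 fold changes.

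DICSQDRAFT_171488 was a day 16 member on both woods. On spruce it had 16.7 and 21.6 RPKM on day 16, against 6.69 and 4.76 RPKM on day 9, and on aspen 15.7 and 14.6 RPKM on day 16, against 4.92 and 4.29 RPKM on day 9. The 8 non-woody libraries ranged from 4.53 to 7.30 RPKM. The days did not overlap on either wood, with log2 fold changes of 1.72 (SE 0.18, edgeR adjusted p = 8.1e-07) on spruce and 1.57 (SE 0.19, edgeR adjusted p = 2.4e-06) on aspen, and the day effect exceeded that on the non-woody substrates by 1.32 (SE 0.20, edgeR adjusted p = 4.2e-05).

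DICSQDRAFT_181574 was also highest on wood on day 16, at higher levels. On spruce it had 88.6 and 87.5 RPKM on day 16, against 47.5 and 32.5 RPKM on day 9, and on aspen 97.8 and 80.4 RPKM on day 16, against 29.0 and 20.5 RPKM on day 9. The non-woody libraries ranged from 29.2 to 43.9 RPKM over both days, so that wood lay above them on day 16 (log2 fold change 0.85, SE 0.12, edgeR adjusted p = 2.6e-05) and overlapped them on day 9, where the contrast was -0.64 (SE 0.12, edgeR adjusted p = 3.4e-04). The day contrast was 1.12 (SE 0.17, edgeR adjusted p = 6.7e-05) on spruce and 1.71 (SE 0.17, edgeR adjusted p = 9.2e-07) on aspen.

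The 6 members with no KEGG match held 3 of the 5 most abundant genes of the family. DICSQDRAFT_142025 had 53.9 and 55.6 RPKM on spruce and 50.1 and 51.5 RPKM on aspen on day 16, against 119 and 116 RPKM on spruce and 122 and 106 RPKM on aspen on day 9, and 28.2 to 50.9 RPKM in the non-woody libraries. The days did not overlap on wood, with log2 fold changes of -1.12 (SE 0.08, edgeR adjusted p = 1.3e-08) on spruce and -1.31 (SE 0.08, edgeR adjusted p = 9.2e-10) on aspen. DICSQDRAFT_96760 ranged from 77.6 to 215 RPKM over the 16 libraries and was called higher on wood on day 9 (0.58) and lower on day 16 (-0.27). When only library size was used, its day 16 contrast was called in the other direction (0.22, edgeR adjusted p = 0.02). The direction on day 16 thus depended on the normalization. DICSQDRAFT_164763, at 46.9 to 94.0 RPKM, was lower on wood on day 9 (-0.78) and on day 16 (-0.35), the call of day 16 again with a positive sign (0.14) under library size alone. Of the other 3, DICSQDRAFT_104943 was higher on wood on both days (log2 fold changes of 1.46 on day 16 and 1.22 on day 9), DICSQDRAFT_58171 was lower on wood on day 9 (-0.75), and DICSQDRAFT_165576 was higher on wood on day 9 (0.47).

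The 4 members with a named KEGG match of their own had no called log2 fold change above 0.51 in size. The histone demethylase match DICSQDRAFT_103145 had 21.5 to 45.0 RPKM over the 16 libraries, with wood contrasts of 0.14 on day 16 and -0.01 on day 9 that did not pass. The carnitine synthesis match DICSQDRAFT_156869 had 6.85 to 19.4 RPKM. Its wood contrasts did not pass either, and it was lower on day 16 than on day 9 on wheat bran (-0.43, SE 0.12, edgeR adjusted p = 0.02) and on cotton seed hulls (-0.51, SE 0.14, edgeR adjusted p = 0.0098). The F-box match DICSQDRAFT_84281 had 7.27 to 12.4 RPKM and was higher on day 16 on aspen (0.35), wheat bran (0.46) and cotton seed hulls (0.43), all log2 fold changes. The wybutosine match DICSQDRAFT_182270, at 3.65 to 10.8 RPKM, was higher on wood on both days (0.30 on day 16 and 0.43 on day 9).

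Spruce and aspen differed for few members. On day 16, 7 members were called, 4 higher and 3 lower on spruce, against a background of 23.5%, with 11.5% higher and 12% lower, and the split was 5 and 2 with library size alone. They were DICSQDRAFT_181576, DICSQDRAFT_72662 (0.54), DICSQDRAFT_88422 (0.33) and DICSQDRAFT_173103 (0.95), higher on spruce, and DICSQDRAFT_90486, DICSQDRAFT_131575 and DICSQDRAFT_90921 (-0.72), lower on spruce, in log2 fold changes. The call of DICSQDRAFT_88422 was lost in DESeq2 (adjusted p = 0.054) and without spruce replicate 2 or either aspen library of day 16, with log2 fold changes of 0.19 to 0.40. Without spruce day 16 replicate 2 the number was 3. On day 9, 3 members were called, all lower on spruce (background 21.4%, with 8.26% higher and 13.2% lower), and these were DICSQDRAFT_103145 (-0.50), DICSQDRAFT_136005 (-0.38) and DICSQDRAFT_173136 (-0.78). Without spruce day 9 replicate 1 the number was 1, and without spruce day 9 replicate 2 or aspen day 9 replicate 1 it was 5. With library size alone the 3 calls were replaced by 7 others, all higher on spruce, and with only the spruce and aspen groups of day 9 in the model no member was called by edgeR, where 3.7% of all genes were; DESeq2 on all groups called 2. The difference of day effects between spruce and aspen was called for 3 members (background 19%, with 10.8% positive and 8.22% negative), DICSQDRAFT_181576, DICSQDRAFT_90486 and DICSQDRAFT_90921 (-0.84). Without spruce day 9 replicate 2 the number was 6, and without either aspen library of day 9 it was 5.

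Wheat bran and cotton seed hulls differed for 10 members on day 16, 8 higher and 2 lower on wheat bran (background 31.4%, with 13% higher and 18.3% lower), and for 12 on day 9, 7 higher and 5 lower (background 33.8%, with 15.2% higher and 18.5% lower). With library size alone the splits were 22 and 0 on day 16, and 13 and 2 on day 9. Leaving out any 1 of the 4 libraries of day 16 gave 3 to 6 calls on that day, and on day 9 the number was 5 without wheat bran replicate 1 and 6 without cotton seed hulls replicate 2. On day 16 DICSQDRAFT_90908 was called at a low level, with 11 and 13 reads on wheat bran, against 2 and 2 reads on cotton seed hulls. Of the other calls of day 16, those of DICSQDRAFT_90486 (1.45) and DICSQDRAFT_162995 (1.17) had the largest log2 fold changes. On day 9 the largest were those of DICSQDRAFT_173136 (-1.85), DICSQDRAFT_173103 (1.31) and DICSQDRAFT_181576 (1.13). The difference of day effects between these substrates was called for 3 members (background 9.39%, with 4.29% positive and 5.1% negative), DICSQDRAFT_181576 (-1.13), DICSQDRAFT_173136 (2.32) and DICSQDRAFT_173103 (-2.17), on the log2 scale. Of these, the call of DICSQDRAFT_181576 was kept in DESeq2, where it was -1.12, and those of DICSQDRAFT_173136 and DICSQDRAFT_173103 were lost. Without either wheat bran library of day 16, or without cotton seed hulls day 16 replicate 1, 1 member was called. The split was 1 positive and 2 negative, against 2 and 2 with relative log expression (RLE) size factors and 3 and 2 with library size alone.

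Many members lie close together in the genome. By the gene order of the RefSeq assembly Dichomitus squalens v1.0, 12 members fall within a run of 45 genes and 6 within a run of 31 genes. Pairs at most 2 places apart numbered 15, and their correlations over the 8 group means (log2 scale) ranged from -0.197 to 0.943 with a median of 0.347, against a median of 0.415 over all 741 pairs of members. The counts do not state a strand, so reads of overlapping neighbours cannot be told apart, and reads of near-identical copies may be missing since only unique reads were counted.

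In the run that holds 6 members, DICSQDRAFT_181574, DICSQDRAFT_171488 and DICSQDRAFT_181576 stand side by side, and the first 2 had r = 0.943 with each other. DICSQDRAFT_171488 and DICSQDRAFT_181576, next to each other, had r = 0.203. Between days on wood the first 2 were higher on day 16, by log2 fold changes of 1.12 and 1.72 on spruce and 1.71 and 1.57 on aspen, while DICSQDRAFT_181576 was lower, with -1.88 and -3.17. The gene after DICSQDRAFT_181576, DICSQDRAFT_108020, encodes a glycoside hydrolase family 61 protein, a class of oxidative polysaccharide-cleaving enzymes. It had group means of 102 and 14.0 RPKM on spruce and aspen on day 16, against 6.96 and 5.59 RPKM on day 9. On cotton seed hulls the means were 23.5 RPKM on day 16 and 60.1 RPKM on day 9. On wheat bran the mean was 15.9 RPKM on day 9, and on day 16 it lay below the aspen mean of that day. Every non-woody mean of this gene lay above both wood means of day 9, and its highest mean was that of spruce on day 16.

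In the run that holds 12 members, 11 were tested. On day 16 against day 9, 5 were higher and 1 lower on spruce (background 23.6% and 27%), and 6 were higher and 1 lower on aspen (background 31.5% and 32.1%). On wheat bran 2 were higher and 3 lower (background 9.13% and 8.16%), and on cotton seed hulls 2 were higher and 4 lower (background 15.7% and 12.7%). The neighbours DICSQDRAFT_173136 and DICSQDRAFT_173137, at its end, had r = -0.197. DICSQDRAFT_173136 had 1.93 and 1.26 RPKM on spruce and aspen on day 16, against 4.41 and 6.50 RPKM on day 9, and it was lower on day 16, with log2 fold changes of -1.20 (SE 0.33, edgeR adjusted p = 0.006) on spruce and -2.50 (SE 0.33, edgeR adjusted p = 5.8e-06) on aspen, where DICSQDRAFT_173137 was 0.75 and 2.20. On cotton seed hulls both were lower on day 16, with -2.08 for DICSQDRAFT_173136 and -2.06 for DICSQDRAFT_173137 (log2 fold changes).

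**Figure D5:**
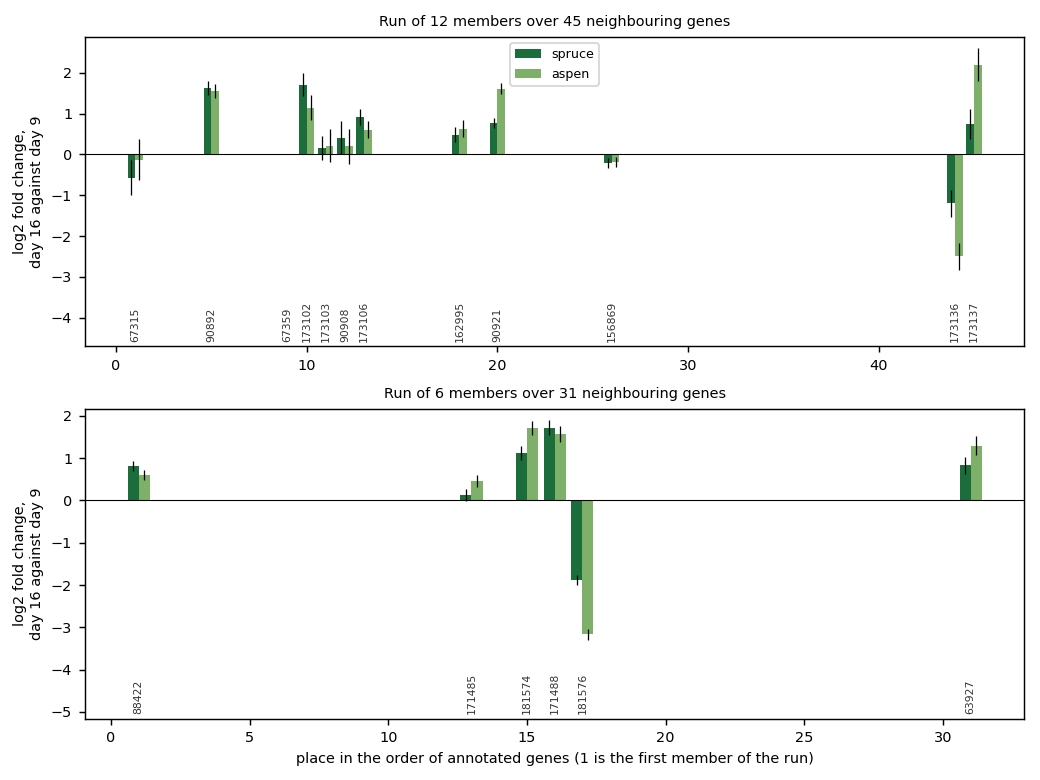
Log2 fold change of day 16 against day 9 on spruce and aspen (bars, with 1 SE) for members in 2 runs of neighbouring genes, placed by their order along the annotation; numbers are locus tags, and DICSQDRAFT_67359 has no bar as it was not tested. In the lower panel DICSQDRAFT_181576 lies below 0 next to DICSQDRAFT_171488 and DICSQDRAFT_181574 above 0.

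The low members add calls but little RNA. The 12 members under 10 RPKM in every group ranged from 0 to 10.1 RPKM in single libraries, 11 of them were tested, and DICSQDRAFT_67359 had at most 0.427 RPKM in any library. DICSQDRAFT_144035 and DICSQDRAFT_99160 had reads over only 27.4 to 42.3% and 15.01 to 23.98% of their gene models, so their values rest on part of the model. DICSQDRAFT_144035 was lower on wood on day 9 (-1.52) and on day 16 (-0.36, with a positive sign of 0.12 under library size alone). DICSQDRAFT_90892, with up to 17.0 RPKM, was lower on wood on day 9 (-1.20) and higher on day 16 than on day 9 with all 4 substrates (log2 fold changes of 1.63 with spruce, 1.56 with aspen, 0.69 with wheat bran and 0.72 with cotton seed hulls); its wood contrast of day 16, -0.31, was 0.17 under library size alone.

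The other genes that this enzyme chemistry touches were read from 5 lists made from words in the gene descriptions. A list made in this way need not hold every gene of its class or pathway, and may hold others. Of 4 genes listed as other Fe(II)- and 2-oxoglutarate-dependent oxygenases, 4 were higher on wood on day 16 (background 29.7%), with a median log2 fold change of 1.31. On day 9, 2 were higher and 2 lower (background 37.4% and 34.1%). The most abundant was DICSQDRAFT_46390, a TauD-domain protein, the class of taurine dioxygenase. It had means of 322 and 618 RPKM on spruce and aspen on day 16, against 14.96 and 29.99 RPKM on day 9. Its log2 day effect was 4.41 (SE 0.13, edgeR adjusted p = 3.1e-13) on spruce and 4.23 (SE 0.13, edgeR adjusted p = 4.2e-13) on aspen. Its mean over all 16 libraries was 180 RPKM, so the non-woody groups together averaged above the wood groups of day 9. DICSQDRAFT_133573, also a TauD-domain protein, had log2 day effects of 2.58 (SE 0.16, edgeR adjusted p = 9.7e-09) on spruce and 2.96 (SE 0.16, edgeR adjusted p = 1.2e-09) on aspen.

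Among 19 genes of 2-oxoglutarate and succinate metabolism, 4 were higher and 10 lower on wood on day 16 (background 29.7% and 30%), and 10 were higher and 4 lower on day 9 (background 37.4% and 34.1%); with library size alone these were 13 and 3 on day 16, and 12 and 3 on day 9. The median log2 fold change was -0.17 on day 16 and 0.15 on day 9. The citric acid cycle enzyme aconitate hydratase (DICSQDRAFT_69370) had a wood contrast of -0.41 (SE 0.07, edgeR adjusted p = 8.6e-05) on day 16, which was 0.07 under library size alone, and succinate dehydrogenase (DICSQDRAFT_179924) was lower on day 16 than on day 9, with -0.42 (SE 0.07, edgeR adjusted p = 1.3e-04) on spruce and -0.66 (SE 0.07, edgeR adjusted p = 6.3e-07) on aspen, on the log2 scale. Of 7 genes of iron uptake and homeostasis, 4 were higher on wood on day 16 (background 29.7%) and 5 on day 9 (background 37.4%), and 7 on each day with library size alone, with median log2 fold changes of 0.36 and 0.37 in the main test. An iron permease (DICSQDRAFT_157992) had means of 2090.1 and 1588 RPKM on spruce and aspen on day 16, against 941 and 592 RPKM on wheat bran and cotton seed hulls. With TMM its log2 fold change was 0.80 (SE 0.10, edgeR adjusted p = 2.8e-06). The RPKM values also hold the shift of all genes toward wood, a median of 0.51 log2 units on day 16 with library size alone.

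The 8 genes listed under sulfur uptake and assimilation included S-adenosyl-L-homocysteine hydrolase (DICSQDRAFT_153640), found by the word homocysteine. It was the most abundant of the 8, with a mean of 175 RPKM. Of the 8, 3 were higher and 2 lower on wood on day 16 (background 29.7% and 30%). On day 9, 4 were higher and 2 lower (background 37.4% and 34.1%), and library size alone gave 6 and 2 on day 16. The median log2 fold change was 0.23 on day 16 and 0.44 on day 9. Sulfite reductase subunit beta (DICSQDRAFT_167312), which reduces sulfite to sulfide, was lower on wood, with log2 fold changes of -1.09 (SE 0.13, edgeR adjusted p = 9.2e-06) on day 16 and -2.14 (SE 0.13, edgeR adjusted p = 8.5e-09) on day 9. Of 12 other dioxygenases, 6 were higher and 1 lower on wood on day 16 (background 29.7% and 30%), and 4 were higher and 5 lower on day 9 (background 37.4% and 34.1%), and library size alone gave 10 and 1 on day 16 and 6 and 3 on day 9. The median log2 fold change was 0.54 on day 16 and -0.04 on day 9. Within them 2-nitropropane dioxygenase (DICSQDRAFT_48770), which oxidises nitroalkanes, was higher on wood on day 16 (0.63, SE 0.07, edgeR adjusted p = 3.6e-07) and lower on day 9 (-1.04, SE 0.07, edgeR adjusted p = 4.0e-10).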

How the data were processed

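RNA from 16 libraries in 8 groups was analysed. Per the file headers, the authors deposited counts of uniquely mapped reads per gene model, RPKM computed from these counts, gene length and library total, and the percentage of each model covered by reads. Aligner, genome build and strandedness: not given in the sources used here. Counts were tested with edgeR 4.0.16 (limma 3.58.1, R 4.3.3): TMM, filterByExpr with a minimum count of 10 and a total of 15, a quasi-likelihood fit with 1 mean per group and two-sided contrasts, Benjamini-Hochberg over 10584 genes. The fit left 8 residual degrees of freedom and a common coefficient of biological variation of 0.0982. The script was tested on simulated data. Percentages and RPKM were described, not tested, apart from limma on log2(RPKM + 1) and log2(RPKM + 0.1) as alternatives. Other alternatives were DESeq2 1.42.0, RLE size factors, library size alone, other low-count filters, a replicate block, only the groups compared, and leaving out each library.

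Members described by library had at least 10 RPKM in a group and a called log2 fold change of at least 1, up to 10 members by largest change; the other members are given by range and values of their calls. The 5 gene lists come from words in the descriptions, and the 2 most abundant genes of each were eligible to be named. Members and lists were chosen with earlier results of these data known. RefSeq (Dichomitus squalens v1.0) was used only for gene order, with all 39 members matched. Counting error and replicate spread limit the precision of each value.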

Additional observations from a re-analysis of the deposited data

Results flagged for a closer look

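The change between days differed between wood and non-woody substrates for 20 of the 38 tested members, as a tested difference of log2 day effects in edgeR, where 52.8% of all genes were called. The 10 members described by library were all among these 20, and since they were chosen for large called changes in these comparisons, nothing is read from that number. On wood minus non-woody substrates it was positive for DICSQDRAFT_173137 (3.56), DICSQDRAFT_90486 (2.60), DICSQDRAFT_181574 (1.48), DICSQDRAFT_171488 (1.32) and DICSQDRAFT_88422 (0.58). It was negative for DICSQDRAFT_131575 (-2.05), DICSQDRAFT_136005 (-1.84), DICSQDRAFT_181576 (-1.55), DICSQDRAFT_61552 (-1.22) and DICSQDRAFT_143881 (-0.74). The edgeR adjusted p was 0.033 for DICSQDRAFT_131575 and at most 0.00081 for the other 9. The call of DICSQDRAFT_131575 was lost with library size alone (edgeR adjusted p = 0.051) and without any 1 of 11 of the 16 libraries (edgeR adjusted p of 0.051 to 0.087), with values of -2.08 to -1.80. Spruce minus aspen, the difference was 1.29 for DICSQDRAFT_181576 and -1.41 for DICSQDRAFT_90486. Wheat bran minus cotton seed hulls, it was -1.13 for DICSQDRAFT_181576. Groups of 2 libraries are too small to look for single libraries far from the others.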

How the results depend on the processing

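The members chosen by library had 65 called changes between substrates or days, or in the difference of day effects. Of these, 54 were kept under every alternative run and 11 lost the call under at least 1, with no change of sign. Numbers of members called moved by over 1.5 times as follows. For spruce against aspen on day 9 (3 members), library size alone gave 7, limma on log2(RPKM + 1) and on log2(RPKM + 0.1) gave 8 and 8, a replicate block gave 5, and only the groups compared gave 0 (DESeq2 gave 2). For wheat bran against cotton seed hulls on day 16 (10 members), library size alone gave 22, limma 23 and 23, and DESeq2 6. For day 16 against day 9 on cotton seed hulls (9 members), library size alone gave 14, limma 14 and 15, and only the groups compared 14. For the day effect on wheat bran minus cotton seed hulls (3 members), library size alone gave 5, limma 5 and 5, only the groups compared 5, and DESeq2 1. The model with only the groups compared was not run for wood minus non-woody day effects, which use all groups.

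Leaving out 1 library at a time gave 1 to 5 members for spruce against aspen on day 9 (1 without spruce replicate 1), 3 to 5 on day 16 (3 without spruce replicate 2), 5 to 10 for wheat bran against cotton seed hulls on day 9 (5 without wheat bran replicate 1, 6 without cotton seed hulls replicate 2), and 3 to 6 on day 16, where each of the 4 libraries moved it. It gave 3 to 5 for the days on wheat bran, where each of the 4 libraries moved it, 5 to 8 on cotton seed hulls (5 without day 9 replicate 2), 3 to 6 for day effects on spruce minus aspen (6 without spruce day 9 replicate 2, 5 without either aspen library of day 9), and 1 to 3 on wheat bran minus cotton seed hulls. It gave 17 to 21 on day 16 and 25 to 27 on day 9 for wood against non-woody substrates, 20 to 21 and 22 to 25 for the days on spruce and aspen, and 18 to 21 for wood minus non-woody day effects.

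Signs turned for 6 genes, each under library size alone, limma on log2(RPKM + 1) and limma on log2(RPKM + 0.1), for which the median of all genes moved as well. For wood against non-woody substrates on day 16 the log2 fold changes became 0.22, 0.21 and 0.22 for DICSQDRAFT_96760, 0.14, 0.14 and 0.14 for DICSQDRAFT_164763, 0.17, 0.16 and 0.16 for DICSQDRAFT_90892, 0.12, 0.10 and 0.12 for DICSQDRAFT_144035 and 0.0692, 0.0684 and 0.0686 for DICSQDRAFT_69370. On day 9 they became 0.0233, 0.0261 and 0.0266 for DICSQDRAFT_171485. The turned value of DICSQDRAFT_96760 passed under each of these settings (edgeR adjusted p = 0.02, limma adjusted p = 0.03 with either pseudocount). The turned values of the other genes did not pass. The shift of that median with library size alone was 0.51 on day 16 and 0.31 on day 9 for wood against non-woody substrates, and 0.22 on day 9 for spruce against aspen. The cause of the other changes was not tested.

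Over 28 pairs of groups the deviations of same-numbered libraries had a correlation of -0.0629 to 0.416 with a median of 0.0243. Most pairs thus showed no pairing by replicate number. For the 1 pair over 0.1, at 0.416, an effect shared by libraries of the same number cannot be set aside, and its source was not tested. With the replicate block, numbers of members called other than the one above stayed within 1.5 times. Members under 10 RPKM in every group have few reads, and differences there may not be detectable at this depth.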
